A study of Mus musculus with 12 samples.

Results

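Metallothioneins are the subject here: Mt1, Mt2 and Mt3, taken by gene symbol with the transcript rows of a symbol summed, which made 3 of the 23183 gene symbols measured. Each symbol held 1 deposited transcript, NM_013602 for Mt1, NM_008630 for Mt2 and NM_013603 for Mt3, and all 3 genes passed the filter on low counts that left 14541 genes for testing. The RNA came from the ventral hippocampus, a region involved in emotion, of 12 wild-type male C57BL/6J mice that were 8 weeks old when naive, 3 in each of 4 groups. The unstressed controls (C) had no treatment. The sedentary stress-susceptible mice (SS) had been held in restraint tubes for 2 hours a day on 14 days. The remaining groups had the same restraint and then access to a running wheel, and were separated by behaviour into effective responders (SES), whose behaviour improved, and ineffective responders (SER), whose behaviour improved little or not at all. The titles of the samples give 14 days of running and the protocol gives 4 weeks. SES and SER were thus formed by outcome and not by assignment.

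Metallothioneins are small cysteine-rich proteins that bind zinc and copper. Mt1 and Mt2 are made in many tissues and in the brain mainly by astrocytes, and their transcription is induced by zinc through the metal-responsive factor MTF1, by glucocorticoids and by oxidative stress. Mt3, also called growth inhibitory factor, is the brain form, is present in neurons and astrocytes, and is not induced by metals or glucocorticoids in the way that the other two are. In glutamatergic neurons zinc is loaded into synaptic vesicles by the transporter Slc30a3 (ZnT3).

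The genes lie side by side on the plus strand of mouse chromosome 8 (GRCm38, the assembly of mm10). Mt3 is at chr8:94152607-94154146, Mt2 at chr8:94172664-94173568 and Mt1 at chr8:94179082-94180327 in GENCODE M21. The end of Mt2 is 5514 bases from the start of Mt1, and the end of Mt3 is 18518 bases from the start of Mt2. Each has 3 exons, with mRNAs of 549 bases (Mt1), 511 bases (Mt2) and 536 bases (Mt3), and with coding parts of 183, 183 and 204 bases. Mt4, the squamous epithelial form at the other end of the cluster, had 1 count in all 12 libraries together. In the 11 libraries where it was at 0, as many as 3 counts could have been missed, a floor of 0.189 to 0.327 CPM (counts scaled to a fixed library size) over the 12 libraries.

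Metal response elements, the sites that MTF1 binds, share the core letters TGCACNC or TGCGCNC. Both forms were searched on both strands in the first 180 bases of each annotated mRNA, because the TATA box of all 3 genes lies inside the annotated first exon. Mt1 held 4 cores, Mt2 held 3 and Mt3 held 3. Of 24003 coding transcripts of 12056 genes with at least that much sequence before the start codon, 20.4% held 1 or more, 0.692% held 3 or more and 0.137% held 4 or more. The stretch from the last core to the TATA box is shown for each gene because it is the feature that all 3 share, the core and the TATAAA box in capitals, plus strand, 5′ to 3′, in the 5′ untranslated part of the first exon as annotated. The stretches are at chr8:94179187-94179215 (Mt1), chr8:94172729-94172758 (Mt2) and chr8:94152693-94152718 (Mt3), GRCm38.
Mt1: TGCGCCCggactcgtccaacgacTATAAA
Mt2: TGCGCTCgacccaatactctccgcTATAAA
Mt3: TGCGCGCccccgcctggggcTATAAA

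A core followed by TATAAA within 30 bases was present in 4 of the 24003 transcripts, those of Mt1, Mt2, Mt3 and Txn1. The pattern and its limit of 30 bases were set on the sequences of the 3 members, so its rarity elsewhere is no evidence about them. Mt3 carries the same arrangement of letters as Mt1 and Mt2. A match of letters is a description and not evidence of binding. In the 250 bases before the start used for the RefSeq promoters (GRCm38.p6) Mt1 had 1 core, Mt2 had 3 and Mt3 had none, against 21.4% of 32851 such windows with 1 or more and 1.26% with 3 or more. For Mt1 that start was chr8:94179089, inside the gene as annotated by RefSeq (from 94178883) and GENCODE (from 94179082). Its window, chr8:94178839-94179088, thus lies largely within the RefSeq gene, unlike those of Mt2 and Mt3. The window of Mt2 is shown because it held the most, with the cores in capitals (the last one on the minus strand), chr8:94172368-94172617, plus strand.
Mt2: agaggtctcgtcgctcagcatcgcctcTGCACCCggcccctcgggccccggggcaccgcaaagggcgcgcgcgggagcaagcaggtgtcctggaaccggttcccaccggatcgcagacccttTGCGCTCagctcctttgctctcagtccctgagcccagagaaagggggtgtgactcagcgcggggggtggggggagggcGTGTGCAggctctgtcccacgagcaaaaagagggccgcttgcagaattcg

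The antioxidant response core TGACNNNGC, the site of NRF2, was found once in that window of Mt2, at positions -79 to -71 from the RefSeq start, and 10.2% of all windows held it on either strand. It was also found once in the first 180 bases of the Mt1 mRNA, where 7.79% of the 24003 transcripts held it, and not in those of Mt2 or Mt3. The palindromic glucocorticoid response element in its consensus form was in none of the 3 windows or first exons, and in 3 of the 32851 windows. No match says only that these letters were not in these stretches.

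All 3 genes were abundant. By mean CPM over the 12 libraries, scaled to library size with TMM factors, Mt1 ranked 194, Mt3 ranked 266 and Mt2 ranked 388 of the 14541 genes. The lowest value in any library was 2642 counts (Mt2 in an SS mouse) and the highest 11072 counts (Mt1 in an SES mouse). Library totals were 9323607 to 15707516 counts.

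Mt1 was at 522.5, 450.9 and 621.4 CPM in C mice 2, 8 and 12. It was at 588.0, 427.4 and 452.8 CPM in SS mice 18, 19 and 21. The running mice had 696.9, 637.1 and 740.4 CPM in SES mice 9, 10 and 12, and 697.3, 811.4 and 578.6 CPM in SER mice 6, 19 and 20. All 3 SES values were above every C and SS value, while the lowest SER value lay below SS mouse 18 and C mouse 12. The order of the group means was SER with 696 ± 116 CPM, SES with 691 ± 51.8, C with 532 ± 85.6 and SS with 489 ± 86.3 (SD, n = 3 each). SER and SES did not differ beyond their spread, nor did C and SS.

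Mt2 had the widest range of the 3, with 2.39 times between its highest and lowest library. It was at 320.5, 330.6 and 487.5 CPM in C, at 337.8, 207.2 and 252.7 CPM in SS, at 481.5, 418.4 and 494.5 CPM in SES and at 473.3, 491.4 and 401.3 CPM in SER, with mice in the order given above. Every running mouse was above every SS mouse. C mouse 12 was as high as the running mice, and C mice 2 and 8 were close to SS mouse 18. The group means ran from SES (465 ± 40.7 CPM) and SER (455 ± 47.6), which overlapped, through C (380 ± 93.7) to SS (266 ± 66.3). C overlapped with its neighbours on both sides of this order.

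Mt3, the brain form, was the most even. It was at 453.6, 549.7 and 598.1 CPM in C, at 484.1, 416.0 and 455.9 in SS, at 481.5, 468.0 and 455.5 in SES and at 469.1, 580.0 and 411.9 in SER. The highest library was 1.45 times the lowest, against 1.90 times for Mt1. The group means were 534 ± 73.5 CPM in C, 487 ± 85.5 in SER, 468 ± 13.02 in SES and 452 ± 34.2 in SS, and no neighbours in that order were apart beyond their spread.

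**Figure D1:**
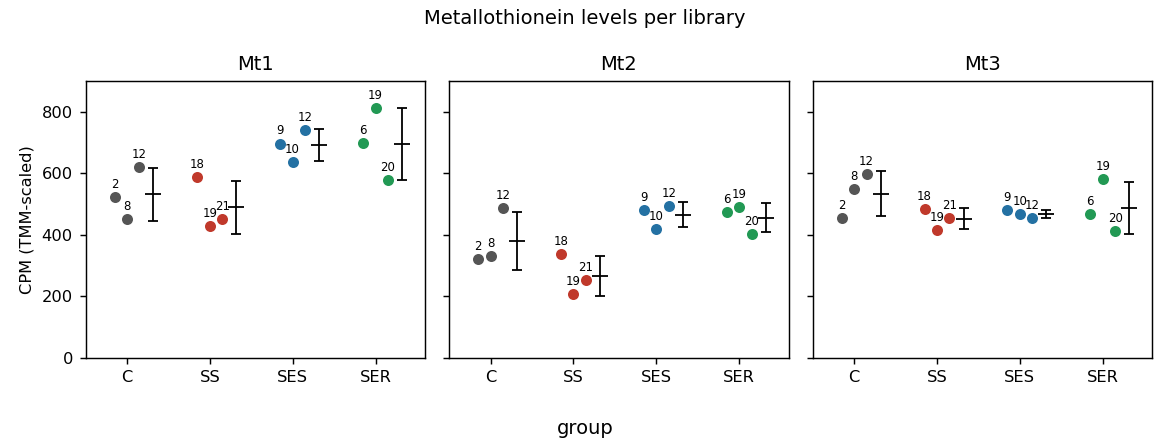
Level of Mt1, Mt2 and Mt3 in each library, in CPM, by group (C unstressed, SS sedentary stressed, SES effective and SER ineffective running responders). Points are mice with their numbers, and the bar beside each group is the mean with 1 SD (n = 3). Mt2 lies between 207.2 and 337.8 CPM in SS and between 401.3 and 494.5 CPM in the running mice, while the 4 groups of Mt3 overlap.

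Per kilobase of mRNA the 3 genes can be set against each other. In C, Mt3 had 996 CPM per kilobase, Mt1 968 and Mt2 743. In SS the order was Mt1 (891), Mt3 (843) and Mt2 (520 CPM per kilobase). In SES the values were 1260 for Mt1, 910 for Mt2 and 874 for Mt3, and in SER 1267, 891 and 909 CPM per kilobase in the same order of genes.

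The first comparison asked how stress-susceptible mice differed from unstressed mice. Mt2 had a mean 0.700 times that of C, a log2 difference of -0.51 ± 0.18 (SE, 95% interval -0.91 to -0.12), and with an adjusted p of 0.0836 in edgeR's quasi-likelihood test it did not pass the threshold of 0.05. Mt3 had a log2 difference of -0.24 ± 0.13 (adjusted p = 0.239, edgeR) and Mt1 one of -0.12 ± 0.15 (adjusted p = 0.656, edgeR). None of the 3 genes was called, while 9.83% of all genes were, and none had groups that did not overlap, which held for 26.9% of all genes. At an unadjusted p under 0.05, 1 of the 3 passed (Mt2), as did 28.2% of all genes. DESeq2's Wald test called Mt2 (-0.52, adjusted p = 0.0378) where it called 15.6% of the genes it tested, and limma-voom called none of the 3. The share of 9.83% depended on the libraries and the fit. EdgeR called no gene at all when C mouse 8, SS mouse 19 or SS mouse 21 was left out. It also called none with only these groups in the fit. Calls in SS against C given below are from all 12 libraries unless a setting is named.

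SES was set against SS to ask what differed in mice that benefited from running. Mt2 was 1.75-fold higher in the mean, a log2 difference of 0.81 ± 0.18 (95% interval 0.41 to 1.20), which ranked 10 of 14541 genes by p, with an adjusted p of 0.524 in edgeR. Mt1 was 1.41-fold higher (0.50 ± 0.15, 95% interval 0.17 to 0.83, adjusted p = 0.524, edgeR). Mt3 had a difference of 0.05 ± 0.13, with an interval from -0.22 to 0.33 and an adjusted p of 0.917 in edgeR. No gene at all was called in this comparison (0% of 14541), and Mt1 and Mt2 were among the 9.01% with an unadjusted p under 0.05. The calls by edgeR thus do not separate the 3 genes. For both Mt1 and Mt2 the groups did not overlap, which held for 12.2% of all genes. DESeq2 called Mt2 (0.80, adjusted p = 0.0219) and not Mt1, among 0.149% of genes called.

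Ineffective responders gave nearly the same differences. Mt2 was 1.71-fold higher in SER than in SS (0.78 ± 0.18, 95% interval 0.38 to 1.17, adjusted p = 0.106, edgeR), with groups that did not overlap, as for 16.9% of all genes. Mt1 was 1.42-fold higher (0.51 ± 0.15, 95% interval 0.18 to 0.84, adjusted p = 0.130, edgeR), with groups that overlapped. The difference of Mt3 was 0.11 ± 0.13 (adjusted p = 0.695, edgeR). None of the 3 was among the 0.0481% of genes called by edgeR, 2 had an unadjusted p under 0.05, as did 18.2% of all genes, limma-voom called none, and DESeq2 called both Mt1 (0.52, adjusted p = 0.0351) and Mt2 (0.78, adjusted p = 0.00377) among 4.16% of genes.

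Between the running groups themselves the metallothioneins were near zero. SES minus SER was -0.01 on the log2 scale for Mt1 (95% interval -0.34 to 0.32), 0.03 for Mt2 (-0.36 to 0.42) and -0.06 for Mt3 (-0.33 to 0.22). All 3 had an adjusted p of 1.00 in edgeR, none had an unadjusted p under 0.05, and DESeq2 and limma-voom called none. In this comparison 0.0275% of genes were called, and 10.8% had groups that did not overlap, none of the 3 among them.

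Taking the average of the running groups against SS, Mt2 was 1.73-fold higher (0.79 ± 0.16, 95% interval 0.44 to 1.14, rank 32 of 14541 by p, adjusted p = 0.109, edgeR). Mt1 was 1.42-fold higher (0.50 ± 0.14, 95% interval 0.21 to 0.79, adjusted p = 0.123, edgeR), and Mt3 differed by 0.08 (95% interval -0.16 to 0.32). No member was among the 0.0413% of genes called by edgeR, and 2 had an unadjusted p under 0.05, as did 17.2% of all genes. Mt2 was higher in 6 of 6 running mice than in any SS mouse, a separation that 6.04% of all genes had. DESeq2 called Mt1 (0.51, adjusted p = 0.0188) and Mt2 (0.79, adjusted p = 0.000568) among 3% of genes. This comparison and the preceding ones share the SS mice.

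Against the unstressed mice, Mt1 was 1.30-fold higher in SES (0.38 ± 0.15, 95% interval 0.05 to 0.71, adjusted p = 0.256, edgeR) and 1.31-fold higher in SER (0.39 ± 0.15, 95% interval 0.06 to 0.72, adjusted p = 0.198, edgeR). Mt2 had differences of 0.29 (95% interval -0.10 to 0.68) and 0.26 (-0.13 to 0.65), and Mt3 of -0.19 (-0.46 to 0.09) and -0.13 (-0.41 to 0.14). None of the 3 was called, against 0.179% of genes in SES and 1.19% in SER, and in each comparison Mt1 alone of the 3 had an unadjusted p under 0.05, which 16.2% and 18.6% of all genes had. DESeq2 and limma-voom called none of them. The SES and C groups did not overlap for Mt1, as for 26% of genes, while in SER none of the 3 was free of overlap, which 25.3% of genes were.

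A test over the 4 groups together gave an adjusted p of 0.0785 for Mt2, 0.106 for Mt1 and 0.524 for Mt3 in edgeR. That test called 0.206% of genes, none of the 3.

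Leaving out SS mouse 18 moved several of these tests past the threshold in edgeR. This mouse had the highest Mt1 and Mt2 of its group, and its log2 CPM over all genes correlated with those of SS mice 19 and 21 at 0.955 and 0.951, against 0.978 to 0.991 for every other pair of the same group. Without it, Mt2 was lower in SS than in C (-0.73, adjusted p = 0.00590, edgeR) and higher in SES than in SS (1.02, adjusted p = 0.00289) and in SER than in SS (0.99, adjusted p = 0.00165). Mt1 then passed too in SES (0.65, adjusted p = 0.0161, edgeR) and in SER (0.67, adjusted p = 0.00807). Mt3 did not pass in any of these. The calls over all genes moved with it, to 25.7% of genes in SS against C, 8.69% in SES against SS, 16.5% in SER against SS and 16.8% for the average of the running groups. The calls of Mt1 and Mt2 must be read against those shares. With C mouse 2, the other sedentary library high in choroid plexus RNA, left out as well, the shares were 24.8%, 9.71%, 17.5% and 18.1%, and Mt3 passed in SS against C (-0.41, adjusted p = 0.0359, edgeR). With SS mouse 18 as the single SS mouse, assumed to vary like the other groups, Mt2 differed by 0.47 in SES and 0.44 in SER, and no member was called.

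**Figure D2:**
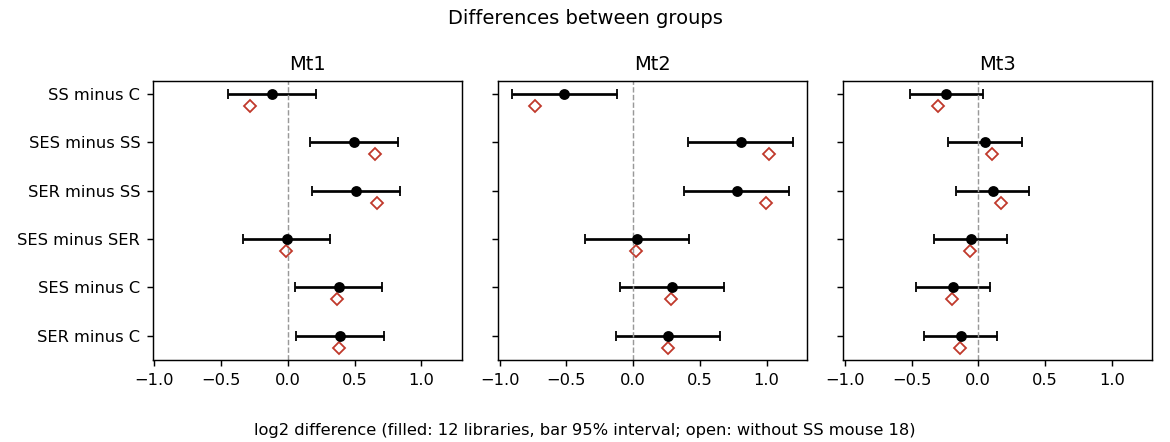
Log2 differences between groups for Mt1, Mt2 and Mt3. Filled points with bars are the estimates and 95% intervals from all 12 libraries, and open diamonds are the estimates without SS mouse 18. For Mt2 against SS the estimates move from 0.81 to 1.02 (SES) and from 0.78 to 0.99 (SER), while those of Mt3 stay near zero in both.

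Ratios within a library do not depend on how libraries are scaled. Both ratios to Mt3 separated the running mice from all others, and the ratio of Mt1 to Mt2 did not. The log2 ratio of Mt1 to Mt3, both per length, was 0.50, 0.41 and 0.67 in the SES mice and 0.54, 0.45 and 0.46 in the SER mice. In the C mice it was 0.17, -0.32 and 0.02, and in the SS mice 0.25, 0.00 and -0.04. The lowest running mouse (0.41) was above the highest sedentary mouse (0.25, SS mouse 18). These ratios are a description of the libraries and were not tested. How many other pairs of genes separate the same mice was not counted, so the separation is no result about the metallothioneins.

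The ratio of Mt2 to Mt3 separated the same mice by less. It was -0.43, -0.66 and -0.23 in C, -0.45, -0.94 and -0.78 in SS, 0.07, -0.09 and 0.19 in SES, and 0.08, -0.17 and 0.03 in SER on the log2 scale. The lowest running mouse was at -0.17 and the highest sedentary mouse, C mouse 12, at -0.23. Group means were -0.44 ± 0.22 (C), -0.72 ± 0.25 (SS), 0.05 ± 0.14 (SES) and -0.02 ± 0.13 (SER). The mean of SES was above that of SS by 0.78, and above that of C by 0.50.

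Mt1 and Mt2, the inducible pair, did not keep a fixed ratio to each other. Mt1 to Mt2 was 0.70, 0.94 and 0.74 in the SS mice on the log2 scale, above all 9 other libraries, which lay between 0.25 and 0.62. How many other pairs of genes set the SS mice apart was not counted either. The means were 0.79 ± 0.13 in SS, 0.40 ± 0.18 in C, 0.47 ± 0.04 in SES and 0.50 ± 0.11 in SER. SS mouse 18 was on the side of its group in this ratio, although its Mt2 level was above those of SS mice 19 and 21 and of C mice 2 and 8.

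**Figure D3:**
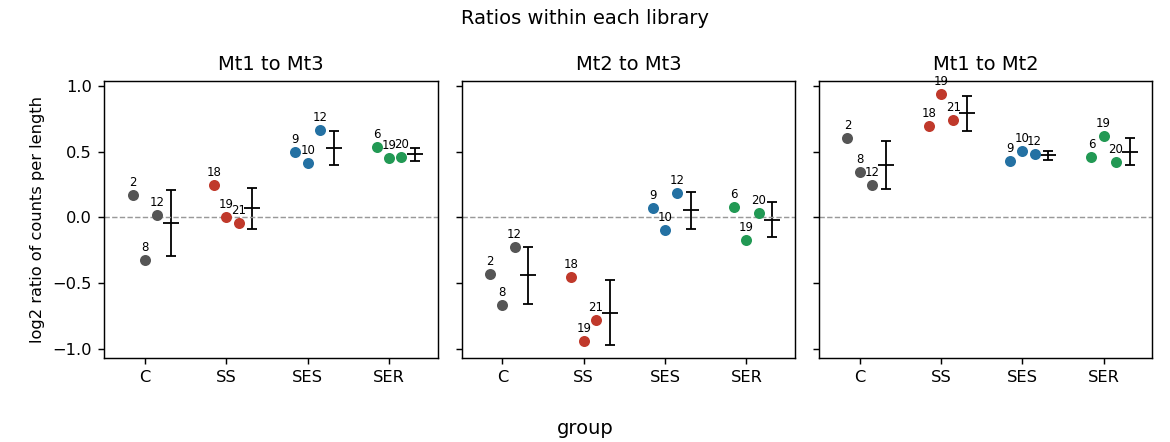
Log2 ratio of counts per length within each library for Mt1 to Mt3, Mt2 to Mt3 and Mt1 to Mt2. Points are mice with their numbers, bars are the group mean with 1 SD (n = 3), and the dashed line marks equal levels. In the ratios to Mt3 all running mice lie above all sedentary mice, and in Mt1 to Mt2 the SS mice, from 0.70 to 0.94, lie above the rest.

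Genes that handle zinc were measured alongside. Of 21 zinc transporters and MTF1, 1 was higher and 2 were lower in SS than in C, where 9.83% of all genes were called, and the list median was 0.12 on the log2 scale against 0.02 for all genes. The count is near that share and is not a result about the list. Slc30a3, which fills synaptic vesicles with zinc, was at 50.2, 82.2 and 89.9 CPM in SS and at 43.3, 48.2 and 48.8 in C, a rise of 0.67 (adjusted p = 0.0415, edgeR). SS mouse 18 was the lowest of its group for this gene and lay close to the C mice. Slc30a4, a vesicular zinc exporter, fell by 0.41 (adjusted p = 0.0357, edgeR), and Slc39a8, a zinc and manganese importer, fell by 0.88 (adjusted p = 0.0394, edgeR).

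Mtf1 itself, the metal sensor, was between 35.9 and 39.0 CPM in the mean of every group and was not called in any comparison, with a difference of 0.02 ± 0.14 in SES against SS. Slc30a1, the zinc exporter of the cell membrane and a standard MTF1 target, had group means of 37.8 to 42.9 CPM and was not called either (-0.09 ± 0.17 in SES against SS, 0.09 ± 0.17 in SER against SS). Among the zinc genes, edgeR called none in SES or SER against SS, with 3 and 6 of 21 at an unadjusted p under 0.05 (9.01% and 18.2% of all genes) and 0 and 1 called by DESeq2. None of the 14 genes for copper handling was called by edgeR in any comparison. In SS against C 5 of these 14 had an unadjusted p under 0.05 and DESeq2 called 2, near the 28.2% and 15.6% of all genes. In SER against C 3 of the 14 had an unadjusted p under 0.05 in edgeR, against 18.6% of all genes. DESeq2 called 3 of the 14 there, where it called 784 of the 14541 genes in its fit. It called none of them in the remaining comparisons. Sod1, the copper and zinc superoxide dismutase, differed by -0.21 ± 0.11 in SS against C (adjusted p = 0.221, edgeR).

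Mt1 and Mt2 are themselves glucocorticoid targets, so other genes induced by glucocorticoids were set beside them. Of 20 such genes 19 were tested, and 5 were higher in SS than in C and none lower, with a list median of 0.49, when 757 of all 14541 genes were higher and 673 lower. In that comparison Mt1 was at -0.12 and Mt2 at -0.51. Over the 12 libraries the mean log2 level of this list had a Pearson's r of 0.60 with Mt1 and 0.41 with Mt2. With Mt3 it was -0.23, all given as a description. Hif3a, a hypoxia-inducible factor subunit and known glucocorticoid target, rose by 1.42, Mertk, a phagocytic receptor, by 0.53, and Zbtb16, a transcription factor, by 0.49. The 2 others, Per1 (0.78), a clock gene, and Ddit4 (0.60), an inhibitor of mTOR signalling, were named after their values were seen. All 5 had an adjusted p between 0.0223 and 0.0488 in edgeR. As given above, no gene was called in SS against C without C mouse 8, SS mouse 19 or SS mouse 21. Fkbp5, a chaperone of the glucocorticoid receptor, did not pass (0.43 ± 0.22, adjusted p = 0.216, edgeR), and neither did the receptor gene Nr3c1 (-0.42 ± 0.14, adjusted p = 0.0674, edgeR).

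In running mice against SS the glucocorticoid list had no calls by edgeR, with medians of 0.20 in SES and -0.07 in SER. At an unadjusted p under 0.05 there were 2 and 6 of 19, against 9.01% and 18.2% of all genes, and DESeq2 called none in either. For the average of the running groups against SS, DESeq2 called 1 of this list, among 3% of genes called. Against C, 3 of 19 were higher in SES (median 0.59), where 0.179% of all genes were called, and 4 of 19 in SER (median 0.42), where 1.19% were. Sult1a1, a sulfotransferase, was among them in both, with 1.34 in SES and 1.19 in SER. Mt1 in those comparisons was at 0.38 and 0.39 and was not called.

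Genes of the NRF2 and antioxidant list had a median of -0.25 in SS against C. Of the 17 tested 2 were called, both lower, a share near the 9.83% of all genes. Txn1, the cytosolic thioredoxin, fell by 0.48 (adjusted p = 0.0223, edgeR), and Prdx1, a peroxide-reducing enzyme, fell by 0.56 (adjusted p = 0.0248, edgeR). Txn1 was the other gene with the arrangement of core and TATA box printed above. It was also lower in SER than in C (-0.50, adjusted p = 0.0358, edgeR) and differed from SS by 0.10 in SES and -0.01 in SER, whereas Mt2 was at 0.81 and 0.78. Against SS, 14 of the 17 differences of the list were above zero in SES (median 0.12) and 16 of 17 in SER (median 0.17), and 17 of 17 for the average of the running groups (median 0.13). EdgeR and DESeq2 called none of them, and in that average 2 had an unadjusted p under 0.05, fewer in proportion than the 17.2% of all genes. Hmox1, haem oxygenase, differed by 0.60 ± 0.20 in SES (adjusted p = 0.524, edgeR) and by 0.51 ± 0.20 in SER (adjusted p = 0.209, edgeR). Nqo1, a quinone reductase, differed by 0.44 ± 0.32 and 0.27 ± 0.33.

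Likeness of pattern was measured as Pearson's r of log2 CPM over the 12 libraries, which share groups and depth, and is given as a description. Mt2 was the gene of rank 4 for Mt1, and Mt1 that of rank 2 for Mt2 (r = 0.91). Mt3 had rank 2929 for Mt1 (r = 0.32) and rank 1980 for Mt2 (r = 0.46). The genes most like Mt1 outside the family were Fam19a5 (r = 0.93), a secreted chemokine-like protein of the brain, Cyp4v3 (0.92), a fatty acid hydroxylase, Sdc4 (0.91), a heparan sulfate proteoglycan of the cell surface, Sncg (0.90), gamma-synuclein, and Atp2c2 (0.89), a calcium and manganese pump. Those most like Mt2 were Lin7c (0.93), a synaptic scaffold protein, Cyp4v3 (0.90), Sncg (0.89), Ccdc43 (0.88) and Bdnf (0.88), the neurotrophin. For Mt3 they were Dgcr6, Mrpl51, Nsmce4a and Mien1 (0.93 each) and Pmm1 (0.92), and no gene was in this list and in that of Mt1 or Mt2. Sdc4 had group means of 125 CPM in C, 135 in SS, 195 in SES and 204 in SER. Sncg, at 3.66 CPM in the mean, and Atp2c2, at 2.61 CPM, were low.

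Other cell types and RNA features differed between libraries. In these bulk samples fewer cells of a type and less RNA per cell cannot be told apart. The summed level of 18 astrocyte markers, cells that make Mt1 and Mt2, was 9452 to 10235 CPM in C, 9392 to 10258 in SS, 10427 to 11845 in SES and 12803 to 13729 in SER. In this sum the running mice were above all sedentary mice. In the mean log2 level of the same markers they were not. SES mouse 10 (7.87) lay below SS mouse 18 (7.89) there. None of these markers was called in SES against SS by edgeR, where it called 0% of all genes. Of the 18, 4 had an unadjusted p under 0.05 there (9.01% of all genes), and DESeq2 called none (0.149% of genes). In SER against SS edgeR called 1 (0.0481% of all genes) and DESeq2 called 6 (4.16%), and 13 had an unadjusted p under 0.05 (18.2%). Slc1a2, the astrocyte glutamate transporter, differed by 0.31 ± 0.12 in SES (adjusted p = 0.524, edgeR) and by 0.69 ± 0.12 in SER (adjusted p = 0.0709, edgeR) against SS. Against C it was called in SER (0.65 ± 0.12, adjusted p = 0.0325, edgeR) and not in SES (0.28 ± 0.12, adjusted p = 0.268, edgeR). In SER against C edgeR called 5 of the 18 markers higher and none lower, where 1.19% of all genes were called. In SES against C it called none of them. With the mean log2 level of these markers as a covariate, Mt2 differed by 0.62 in SES and 0.39 in SER against SS, and Mt1 by 0.35 and 0.21, none called. Without the covariate the differences had been 0.81, 0.78, 0.50 and 0.51. Between SES and SER the list median was -0.17, while Mt1 was at -0.01 and Mt2 at 0.03.

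RNA of the choroid plexus, which adjoins the hippocampus, varied within groups. The sum over 14 markers was 4695, 140 and 216 CPM in C, 6735, 96.5 and 102 in SS, 1329, 6177 and 3024 in SES and 206, 1460 and 222 in SER. SS mouse 18 and C mouse 2 were the high sedentary libraries. All 14 markers were above 0 except for 3 at 0 in C mouse 8 and 1 each in SS mice 19 and 21. Among the running mice, SER mice 6 and 20 were close to C mouse 12 in this sum. Mt2 was at 473.3 and 401.3 CPM in these SER mice and at 487.5 CPM in C mouse 12. Once the level of these markers was a covariate, Mt2 differed by 0.74 in SES and 0.79 in SER against SS. Mt1 differed by 0.39 and 0.51, and none of these was called. Without the covariate the differences had been 0.81, 0.78, 0.50 and 0.51. Against C, Mt1 was at 0.25 in SES and 0.36 in SER with the covariate, and at 0.38 and 0.39 without it. The mean log2 level of these markers had an r of 0.53 with Mt1 and 0.36 with Mt2.

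The summed level of 8 nuclear-retained RNAs was 10437 and 12078 CPM in SS mice 19 and 21, and 1285 to 4006 CPM in the other 10 libraries, SS mouse 18 being the lowest of all. Malat1, one of them, was higher in SS than in C by 2.92 (adjusted p = 0.0223, edgeR). SS mice 19 and 21 were also the lowest in Mt2. With this level as a covariate, Mt2 differed by -0.27 in SS against C (adjusted p = 0.527, edgeR), 0.74 in SES against SS and 0.61 in SER against SS. EdgeR with this covariate called no gene at all in SS against C. Markers of neurons, which make Mt3, summed to 14355 to 17109 CPM over all libraries. Further marker lists stood at other levels in the running groups. All 6 ependymal markers tested, from the cells that line the ventricles, had a difference above zero in the average of the running groups against SS (median 0.70), with sums of 8.42 to 34.5 CPM in C, 9.18 to 51.9 in SS, 30.1 to 47.3 in SES and 31.4 to 56.4 in SER. All 12 endothelial markers had one below zero (median -0.30), with sums of 182 to 275 CPM in C, 141 to 213 in SS, 130 to 208 in SES and 126 to 145 in SER. EdgeR called none of these 2 lists against SS. In the average 1 of each had an unadjusted p under 0.05, where 17.2% of all genes did. DESeq2 called none of them there, among 3% of genes called. Of 10 markers of CA1 and subiculum, 8 had a difference above zero in SES (median 0.49) and 9 in SER (median 0.64) against SS. EdgeR called none and 1 of them, where it called 0% and 0.0481% of all genes. At an unadjusted p under 0.05 there were 4 and 5, against 9.01% and 18.2% of all genes. DESeq2 called 1 and 3, among 0.149% and 4.16% of genes. The sums of these CA1 and subiculum markers were 569 to 835 CPM in C, 446 to 717 in SS, 652 to 885 in SES and 808 to 849 in SER. Over the 12 libraries the mean log2 level of a list had a Pearson's r with Mt1 of 0.76 (ependymal), 0.72 (astrocyte), -0.64 (endothelial) and 0.19 (CA1 and subiculum), given as a description. For Mt2 the values were 0.60, 0.69, -0.55 and 0.31 in the same order, and for Mt3 -0.15, 0.073, 0.0046 and -0.041. Of all lists measured, that of dentate granule cell markers had the r largest in size with Mt3 (-0.67). Its sums were 418 to 473 CPM in C, 489 to 670 in SS, 559 to 620 in SES and 494 to 578 in SER. The part of these features in the differences of Mt1, Mt2 and Mt3 was not tested beyond these values.

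**Figure D4:**
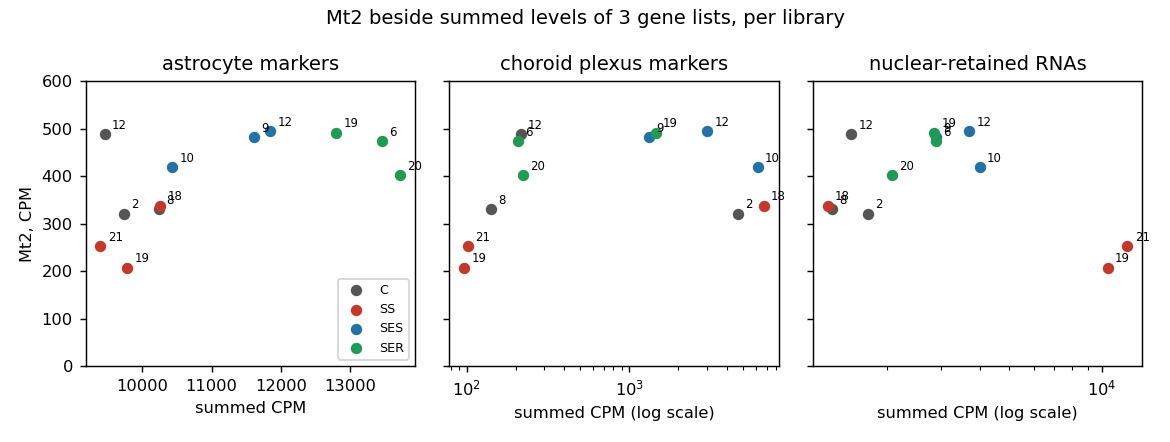
Mt2 in CPM against the summed CPM of astrocyte markers, choroid plexus markers (log axis) and nuclear-retained RNAs (log axis), one point per library with the mouse number. The running mice are to the right of the sedentary mice for astrocyte markers, and SS mice 19 and 21, with the lowest Mt2, stand at the far right for nuclear-retained RNAs.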

How the data were processed

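RNA of 12 ventral hippocampi was extracted with Trizol, and 1.3 µg per library was prepared with the NEBNext Ultra II Directional kit, per the labels' protocols. Per the submitters' processing notes, TopHat and mm10 were used. The authors deposited estimated counts for 33299 transcripts, whole numbers without normalization. Which program counted the reads, with which strand setting and annotation, was not given in the sources used here. Reads shared by near-identical copies or overlapping genes may thus be misassigned.

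Counts were summed per symbol, filtered with filterByExpr (minimum count 10), scaled by TMM (factors 0.97 to 1.039) and tested with edgeR 4.0.16 in R 4.3.3 by the quasi-likelihood F test. All 12 libraries entered 1 fit with 8 residual degrees of freedom (biological coefficient of variation 15.7%), with Benjamini-Hochberg adjustment over 14541 genes and calls at an adjusted p under 0.05. Standard errors were derived from the F statistic. The method was tested on simulated data. Alternatives used DESeq2 1.42.0, limma 3.58.1, other scalings and filters, covariates and left-out libraries.

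The members and gene lists were chosen with earlier results of these data known, so they are not independent evidence. Besides Mt1, Mt2 and Mt3, the genes named are the 5 most like each in pattern, up to 4 called members of each pathway list with the smallest p, and a set of regulators and markers (Mtf1, Slc30a1, Slc30a3, Sod1, Fkbp5, Nr3c1, Hmox1, Nqo1, Slc1a2, Malat1 and Ttr, the last of these only within the choroid plexus sum). Log2 CPM had a prior count of 2. Sequences are from RefSeq promoters (GRCm38.p6) and GENCODE M21 transcripts, and all 3 members were matched. A count of 0 allows up to 3 counts, a floor that covers counting error only. Replicates are mice numbered in the labels.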

Additional observations from a re-analysis of the deposited data

How the results depend on the processing

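Over the 3 genes, 24 results were recomputed under 570 alternatives in all, and 527 kept both their direction and their side of the threshold. The other 43 either passed the threshold (26) or changed sign (17), and none that changed sign was called. All values here are log2 differences, except the F or likelihood ratio statistics of the test over the 4 groups. Adjusted p-values are from edgeR unless another tool is named.

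DESeq2's Wald test called Mt2 in SS against C (-0.52), in SES against SS (0.80), in SER against SS (0.78) and in the running average against SS (0.79). It called Mt1 in SER (0.52) and in the running average (0.51). Its likelihood ratio test over the 4 groups called Mt1 (16.4, adjusted p = 0.0142) and Mt2 (23.1, adjusted p = 0.00157), and edgeR without a filter called Mt2 (F = 9.45, adjusted p = 0.0470). The cause of these differences between tools was not tested. Limma-voom called none of the 3 genes.

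Leaving out C mouse 2 and SS mouse 18 together gave calls in SS against C for Mt2 (-0.84, adjusted p = 0.00297) and Mt3 (-0.41, adjusted p = 0.0359). It gave calls against SS for Mt1 of 0.65 (SES), 0.67 (SER) and 0.66 (running average), and for Mt2 of 1.02 (SES), 0.99 (SER) and 1.01 (running average). Why was not tested.

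Over the libraries left out in turn, SS against C ran from -0.28 to 0.010 for Mt1 and from -0.73 to -0.29 for Mt2. SES against SS ran from 0.41 to 0.65 (Mt1), 0.65 to 1.02 (Mt2) and -0.0054 to 0.10 (Mt3). SER against SS ran from 0.39 to 0.67 (Mt1), 0.63 to 0.99 (Mt2) and -0.028 to 0.22 (Mt3). The running average against SS ran from 0.41 to 0.66 (Mt1) and 0.64 to 1.01 (Mt2). SES against SER ran from -0.12 to 0.11 (Mt1), -0.053 to 0.10 (Mt2) and -0.16 to 0.080 (Mt3). SES against C ran from 0.28 to 0.52 (Mt1), 0.19 to 0.52 (Mt2) and -0.29 to -0.089 (Mt3), and SER against C from 0.26 to 0.53 (Mt1), 0.16 to 0.50 (Mt2) and -0.28 to -0.021 (Mt3), none called. The highest values of Mt1 and Mt2 there came without C mouse 12, and the lowest of Mt2 without C mouse 2. SS against C for Mt3 ran from -0.35 to -0.15. The F statistic over the groups ran from 4.22 to 9.68 (Mt1) and from 5.15 to 13.9 (Mt2). Each call among these came without SS mouse 18, which leaves 2 SS mice.

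Signs changed in small differences. Mt1 in SES against SER was 6.8e-05 by limma-voom, 0.063 with the nuclear-retained RNAs and 0.15 with the astrocyte markers as a covariate. Mt2 in SES against SER was -0.049 with the choroid plexus covariate, and in SER against C -0.074 with the astrocyte covariate. Mt1 in SS against C was 0.046 with the nuclear-retained covariate. With SS mouse 18 as the single SS mouse, an alternative chosen after seeing the data, Mt1 was 0.14 in SS against C, and Mt3 was -0.039 in SES and -0.0095 in the running average against SS. Differences in the ratios between the genes moved by less than 1 pooled SD when any 1 library was left out. With so few mice per group a shift beyond that limit is arithmetically impossible, so the limit says nothing about how stable the ratios are. Of the small differences, 5 changed sign.

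No paired analysis was made, because the labels state no pairing of mice between groups. A mouse number that recurs in another group is not stated to mark the same mouse. How far depth limits the precision was not tested.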
